A study of Mus musculus with 4 samples.

Results

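The genes described here encode proteins of the sperm head cytoskeleton: the cylicins Cylc1 and Cylc2, calicin (Ccin), the cysteine-rich perinuclear theca protein Cypt3, the testis capping protein subunit Capza3, and the spermatid actin-related proteins Actl7a, Actl7b, Actl9, Actrt1 and Actrt2. They were taken by name from the platform annotation of the array with probe sets of several genes left out. All 10 genes were represented, by 11 of the 45037 mouse probe sets, and all 11 passed the filter on low signal that left 22519. Actl9 had 2 probe sets and each other gene had 1.

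RNA was from whole testes of mice aged 8 weeks on the C57BL/6J background, with 2 arrays from wild type mice and 2 from mice lacking Taf7l, described as littermates of each other. Taf7l lies on the X chromosome, is expressed mainly in germ cells and encodes a relative of a subunit of the general transcription factor TFIID, and the question was which testis transcripts differ in its absence. The sources used here do not say how the allele was made or which cells it affects. The second knockout array carries the number 2 in its title and 1 in its description, so the labels do not settle whether these are separate mutant animals, and the p-values rest on a spread between arrays that may be technical.

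The perinuclear theca is a dense protein shell that wraps the nucleus of the spermatid and sperm. Its subacrosomal layer fastens the acrosome to the nuclear envelope, and its postacrosomal part, the calyx, lies between the nucleus and the plasma membrane. Cylicins and calicin are basic proteins of the calyx, and several testis actin-related proteins are needed for the acrosome to stay anchored. These genes are transcribed mainly in haploid spermatids, while widely expressed actins and actin-related proteins serve most cell types.

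As a check of the labels, the Taf7l probe set read 829 and 818 in wild type and 80.6 and 72.5 in the knockout. Signals are linear intensities made with MAS5, and the sources used here do not state how arrays were scaled. The median mouse signal was between 45.2 and 45.7 on the 4 arrays, and the 12 late spermatid markers (protamines, transition proteins and others) were all measured, which fits the labelled tissue. That median lies near the filter on low signal, so it does not show that the arrays were level among bright probe sets. The mean signal was 892 and 888 in wild type and 826 and 853 in the knockout. The beta-actin control gives a 3′ to 5′ ratio, a sign of RNA integrity, which was 2.09 and 1.999 in wild type and 2.42 and 2.18 in the knockout, and that of Gapdh was 1.04 and 0.990 against 0.927 and 0.938. Some values recur exactly between arrays elsewhere in the table, but 0 of the 11 probe sets had the same value on any pair of arrays.

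The promoters of 8 of the 10 genes were found in a RefSeq table of assembly GRCm38.p6, as windows of 250 bases before and 50 after the annotated start, and 6 are shown: the 4 that share an octamer near the start, that of Ccin, the 1 gene that was not lower, and that of Cypt3, which fell. Capitals mark matches on either strand. The letters searched were TATAAA for the TATA box. For the box that the factor NF-Y binds they were CCAAT, and for the box that Sp proteins bind they were GGGCGG. The consensus cAMP response element (CRE) was searched as TGACGTCA. A shorter part of the same element was searched as TGACG, which every consensus match contains but which also occurs without it. A variant that differs from the consensus element at a single letter was searched as TGATGTCA and was added after these windows had been read, so its recurrence is a description.
Cylc1, chrX:111110168-111110467, plus strand: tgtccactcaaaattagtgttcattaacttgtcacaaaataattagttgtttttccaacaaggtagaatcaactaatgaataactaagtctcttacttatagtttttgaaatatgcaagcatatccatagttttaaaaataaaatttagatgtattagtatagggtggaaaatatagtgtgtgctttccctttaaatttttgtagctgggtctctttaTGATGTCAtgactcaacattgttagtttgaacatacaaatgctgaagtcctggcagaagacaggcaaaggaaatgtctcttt
Actl7a, chr4:56743172-56743471, plus strand: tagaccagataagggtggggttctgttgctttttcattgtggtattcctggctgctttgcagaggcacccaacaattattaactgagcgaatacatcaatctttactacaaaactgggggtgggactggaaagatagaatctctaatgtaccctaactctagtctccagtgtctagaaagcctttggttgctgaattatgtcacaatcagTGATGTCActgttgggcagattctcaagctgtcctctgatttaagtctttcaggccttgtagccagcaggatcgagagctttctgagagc
Actl7b, chr4:56741376-56741675, minus strand: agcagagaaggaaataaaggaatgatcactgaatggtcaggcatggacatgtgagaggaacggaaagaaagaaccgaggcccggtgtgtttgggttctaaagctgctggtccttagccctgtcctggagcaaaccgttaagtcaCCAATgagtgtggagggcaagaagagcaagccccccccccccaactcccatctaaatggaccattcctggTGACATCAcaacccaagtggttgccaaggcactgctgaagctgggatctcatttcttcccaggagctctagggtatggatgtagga
Actl9, chr17:33432649-33432948, plus strand: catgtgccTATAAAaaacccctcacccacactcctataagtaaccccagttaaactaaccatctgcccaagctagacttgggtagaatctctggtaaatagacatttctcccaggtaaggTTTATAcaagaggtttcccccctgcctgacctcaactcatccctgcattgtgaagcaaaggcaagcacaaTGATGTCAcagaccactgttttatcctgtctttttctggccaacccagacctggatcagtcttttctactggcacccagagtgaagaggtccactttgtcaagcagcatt
Ccin, chr4:43983254-43983553, plus strand: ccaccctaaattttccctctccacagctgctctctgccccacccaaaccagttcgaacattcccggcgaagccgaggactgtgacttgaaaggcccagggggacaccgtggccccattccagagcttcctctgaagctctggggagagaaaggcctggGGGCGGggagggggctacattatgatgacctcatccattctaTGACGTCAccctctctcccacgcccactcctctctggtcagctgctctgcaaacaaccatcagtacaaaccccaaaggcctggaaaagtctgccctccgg
Cypt3, chrX:153558343-153558642, plus strand: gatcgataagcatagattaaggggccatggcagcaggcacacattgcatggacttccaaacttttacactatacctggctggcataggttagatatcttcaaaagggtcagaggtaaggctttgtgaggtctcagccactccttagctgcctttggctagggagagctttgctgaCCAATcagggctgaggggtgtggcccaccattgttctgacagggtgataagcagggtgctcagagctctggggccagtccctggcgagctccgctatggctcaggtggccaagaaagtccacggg

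TGATGTCA was present in 4 of the 8 windows, against 3.62% of the 32851 windows in the table. It began 32 bases before the start of Cylc1, 40 before that of Actl7a, 36 before that of Actl7b (on the opposite strand, printed as its complement read backwards) and 60 before that of Actl9. The consensus TGACGTCA was found in 1 of the 8, that of Ccin, 50 bases before the start, against 1.79% of all windows. TGACG was found in that window only (20.8% of all windows), GGGCGG also in that of Ccin only (35.7%), CCAAT in those of Cypt3 and Actl7b (37.4%), and TATAAA in that of Actl9 only, far from the start (13.6%). The windows of Actrt1 and Actrt2 held none of these letters. A match describes the sequence and is not evidence of binding. Actl7a and Actl7b are neighbours read in opposite directions, with 1997 bases between their start sites and 0 annotated genes lying wholly between them.

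**Figure D1:**
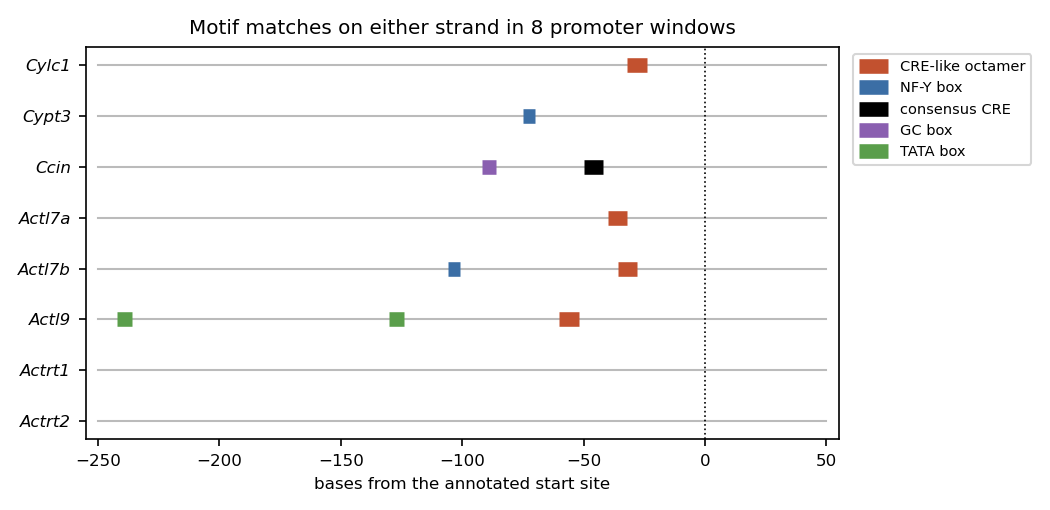
Positions of motif matches (coloured blocks, either strand) in the 8 promoter windows, in bases from the annotated start site (dotted line). The CRE-like octamer lies 25 to 60 bases before the start in Cylc1, Actl7a, Actl7b and Actl9, the consensus CRE is in Ccin, and the windows of Actrt1 and Actrt2 hold no match.

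Signal was lower in the knockout for 9 of the 10 genes and higher for 1, Ccin, and 2 genes fell in the test over all probe sets, Cylc1 and Cypt3. The test was limma's moderated test on log2 signal, two-sided, adjusted over all 22519 kept probe sets by the Benjamini-Hochberg method, with a call at an adjusted p under 0.05. By that rule 1.45% of the 12241 named genes fell and 0.67% rose, while 2 of the 10 genes fell and 0 rose, with 8 lower and 0 higher at an unadjusted limma p under 0.05 (20.4% of named genes were lower at that p). At an adjusted p under 0.10, 5 of the 10 were lower, against 10.3% of named genes. The median log2 difference of the 10 genes, each at its brightest probe set, was −0.30, against −0.05 over named genes and −0.11 over the 5153 named genes whose mean signal was at least that of Actrt1 (656), the lowest of the 10. Of those 5153 genes, 71.0% were lower, as were 60.7% of named genes.

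The wild type and knockout arrays did not overlap at any of the 11 probe sets: 10 had both knockout values below both wild type values, and 1 had them above. Over all kept probe sets the first pattern was found in 36.3% and the second in 18.7%. With any 1 array left out, limma called 0 probe sets in the whole table (3084 to 5500 at an unadjusted p under 0.05), so each call named here rests on all 4 arrays. With 2 arrays a group, an exact permutation test of 1 probe set cannot give a p below 0.333.

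**Figure D2:**
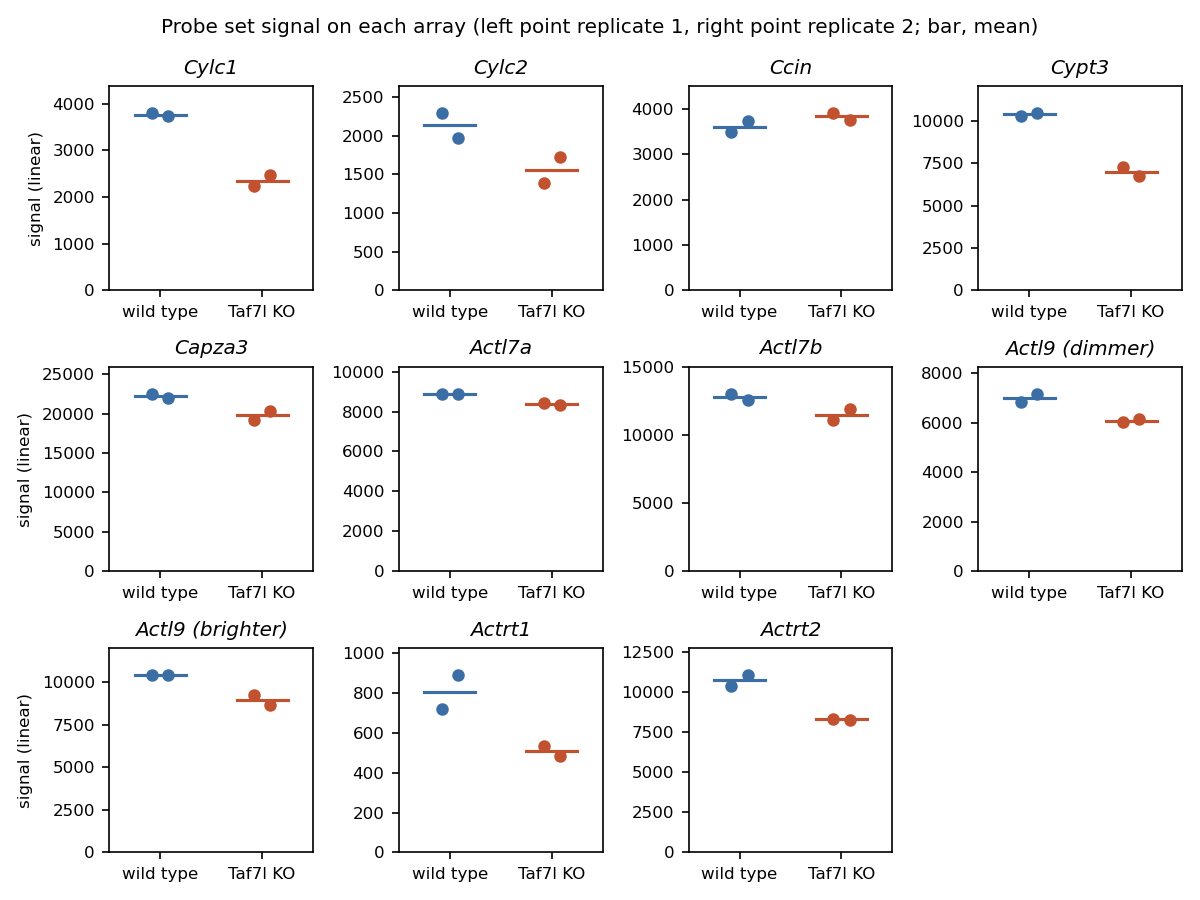
Linear signal of each probe set (vertical axes from 0) on the 2 wild type arrays (blue) and the 2 Taf7l knockout arrays (red), with bars at the group means. The gap between groups is widest, relative to the signal, for Cylc1, Actrt1 and Cypt3, and the knockout points lie above the wild type points for Ccin alone.

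Cylc1 encodes an X-linked cylicin, a lysine-rich protein of the calyx. Its signal was 3811 and 3729 in wild type and 2233 and 2476 in the knockout. Both knockout values were well under both wild type values, and replicates within a genotype lay close together. Its mean went from 3770 ± 58.0 to 2355 ± 172 (SD, n = 2 each), a 1.60-fold fall (log2 −0.68, SE 0.074, limma adjusted p = 0.047), which placed it 141st from the lowest among the 12241 named genes. The call ended with any 1 array left out, when the log2 difference lay between −0.76 and −0.61 and the limma adjusted p was 0.353 when wild type replicate 1 was dropped, 0.297 when wild type replicate 2 was, 0.152 when knockout replicate 1 was and 0.0851 when knockout replicate 2 was. It also ended with no filter on signal (limma adjusted p = 0.160) and without the variance trend (0.0758).

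Cylc2, the autosomal cylicin, was at 2298 and 1973 in wild type and at 1384 and 1726 in the knockout. The groups did not overlap, but the arrays of each genotype differed by more than those of Cylc1 did. Its log2 difference was −0.46 (SE 0.13, 95% interval −0.81 to −0.12) and was not called (limma adjusted p = 0.12). With 1 array left out it ranged from −0.30 without knockout replicate 1 to −0.62 without knockout replicate 2. On the log2 scale the signal of Cylc1 relative to Cylc2 within an array, which does not depend on a constant factor per array, was 0.73 and 0.92 in wild type and 0.69 and 0.52 in the knockout. The groups did not overlap in that ratio, by a narrow margin.

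Ccin encodes calicin, a BTB and kelch repeat protein that binds actin. Its signal was 3476 and 3732 in wild type and 3913 and 3748 in the knockout. The knockout values were the higher ones, by an amount smaller than the distance between the wild type arrays. The log2 difference was 0.09 (SE 0.066, limma adjusted p = 0.47), with a 95% interval of −0.08 to 0.26 that lies wholly above the interval of Cylc1 (−0.87 to −0.49). Dropping wild type replicate 1 made it 0.04, dropping knockout replicate 1 made it 0.06, and dropping wild type replicate 2 made it 0.14. The log2 ratio of Cylc1 to Ccin within an array was 0.13 and −0.0011 in wild type and −0.81 and −0.60 in the knockout. This pair, chosen after its values were seen, sets the gene with the lowest difference against the only higher one. Its separation between genotypes therefore follows from the choice and adds nothing to the differences of each gene.

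Cypt3 encodes a small cysteine-rich basic protein of the theca, and the gene is X-linked. Its signal was 10284 and 10494 in wild type and 7291 and 6737 in the knockout. The groups were far apart relative to the spread within them. The mean of 10389 ± 148 in wild type dropped to 7014 ± 392 in the knockout (SD, n = 2 each), a 1.48-fold fall (log2 −0.57, SE 0.061, limma adjusted p = 0.047). Its probe set is of the type that can also bind related transcripts, so signal from other Cypt genes cannot be told apart from its own, and it drops out when such probe sets are left out. The call was lost after quantile normalization (limma adjusted p = 0.0583) and when any 1 array was left out, with the same limma adjusted p as for Cylc1 in each of the 4 cases (0.353 and 0.297 when wild type replicate 1 or 2 was dropped, 0.152 and 0.0851 when knockout replicate 1 or 2 was). It was lost as well with no filter (0.160) and without the variance trend (0.0810).

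Of 10 other listed Cypt genes, 3 had a probe set of 1 gene, and all 3 were lower, with 0 called by limma and 3 at an unadjusted p under 0.05. Cypt1 was at 9056 and 10156 in wild type and 6938 and 6256 in the knockout (log2 −0.54, limma adjusted p = 0.052). Cypt12 was at 28890 and 30302 against 23219 and 21169 (log2 −0.42, limma adjusted p = 0.051). Cypt4 was at 1595 and 1712 against 1335 and 1427 (log2 −0.26, limma adjusted p = 0.12). At each of the 3 probe sets the genotypes did not overlap. Within an array, the log2 ratio of Cypt3 to Cypt1 was 0.18 and 0.05 in wild type and 0.07 and 0.11 in the knockout, and these overlapped.

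Capza3 encodes the testis form of the alpha subunit of capping protein, which closes the barbed ends of actin filaments. Its signal was 22517 and 22013 in wild type and 19194 and 20334 in the knockout. The knockout arrays were both lower, by little. The log2 difference was −0.17 (SE 0.051, 95% interval −0.30 to −0.04, limma adjusted p = 0.12), and it was not called. Its partner subunit gene Capzb was at 5704 and 5622 against 4581 and 4776 at its brightest probe set (log2 −0.28, limma adjusted p = 0.069), with −0.12, −0.09 and −0.04 at its other 3. The widely expressed alpha subunit gene Capza1 was the other way, at 18891 and 20233 against 21858 and 23575 (log2 0.22, limma adjusted p = 0.12). That is its brightest probe set, of the type that can bind related transcripts. The dimmer Capza1 probe set had 0.09 (limma adjusted p = 0.34). At the brightest probe sets the log2 ratio of Capza3 to Capzb within an array was 1.98 and 1.97 in wild type and 2.07 and 2.09 in the knockout. The genotypes did not overlap in it, with Capza3 higher relative to Capzb in the knockout. That direction holds for the brightest Capzb probe set only, since at the other 3 Capzb was lower by less than Capza3.

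Actl7a encodes a subacrosomal actin-related protein that takes part in anchoring the acrosome. Its signal was 8894 and 8882 in wild type and 8419 and 8301 in the knockout. The genotypes did not overlap, yet the difference was small (log2 −0.09, SE 0.049, limma adjusted p = 0.33), with a 95% interval of −0.21 to 0.04, and it became 0.03 after quantile normalization.

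Actl7b, its neighbour on chromosome 4, encodes an actin-related protein of round and elongating spermatids. It was at 13075 and 12617 in wild type and 11129 and 11939 in the knockout. The log2 difference was −0.16 (SE 0.058, 95% interval −0.30 to −0.0082, limma adjusted p = 0.18) and was not called, and without knockout replicate 1 it was −0.11. The log2 ratio of Actl7a to Actl7b within an array was −0.56 and −0.51 in wild type and −0.40 and −0.52 in the knockout, so the genotypes overlapped in the ratio of this pair.

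Actl9 encodes an actin-related protein of the theca and a partner of Actl7a. At its brighter probe set the signal was 10444 and 10446 in wild type and 9244 and 8678 in the knockout. At the dimmer one it was 6845 and 7168 against 6014 and 6132. Both probe sets had lower values on both knockout arrays, with log2 differences of −0.22 (SE 0.055, limma adjusted p = 0.092) and −0.21 (SE 0.055, limma adjusted p = 0.10). Neither was called. The dimmer one is of the type that can bind related transcripts.

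Actrt1, an X-linked gene, encodes the actin-related protein ARP-T1 of the calyx. Its signal was 718 and 891 in wild type and 535 and 481 in the knockout. The wild type arrays differed clearly from each other, and both lay above both knockout arrays. The log2 difference was −0.66 (SE 0.13, 95% interval −0.99 to −0.32), near that of Cylc1, with a wider error and no call (limma adjusted p = 0.068).

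Actrt2, an autosomal relative that encodes ARP-T2, was at 10402 and 11108 in wild type and 8347 and 8297 in the knockout. The knockout arrays nearly coincided and lay under both wild type arrays. The log2 difference was −0.37 (SE 0.056, 95% interval −0.51 to −0.23), and the limma adjusted p of 0.051 missed the threshold. It passed with either way of centring arrays on their median (limma adjusted p = 0.046 over all mouse probe sets and 0.047 over kept ones). It stayed above the threshold after quantile normalization (limma adjusted p = 0.091), without the variance trend (0.0997) and with no filter on signal (0.165). With 1 array left out the log2 difference lay between −0.42 and −0.32. Actrt3, a further testis relative, was at 4631 and 5172 in wild type and 5396 and 4927 in the knockout (log2 0.08, limma adjusted p = 0.63). The log2 ratio of Actrt2 to Actrt3 within an array was 1.17 and 1.10 in wild type and 0.63 and 0.75 in the knockout, so the genotypes did not overlap in the ratio of this pair. That of Actrt1 to Actrt2 was −3.86 and −3.64 in wild type and −3.96 and −4.11 in the knockout, again with no overlap.

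Ordered by difference, the 3 X-linked genes came first, at −0.68, −0.66 and −0.57, and the 7 autosomal genes lay between −0.46 (Cylc2) and 0.09 (Ccin). The intervals of the X-linked genes overlapped those of Cylc2 and Actrt2, and whether linkage bears on the order was not tested. Neighbours in the order had overlapping 95% intervals throughout. The order changed with 1 array left out: without knockout replicate 2 Cylc2 (−0.62) came before Actrt1 (−0.58) and Cypt3 (−0.51), and without wild type replicate 2 Cylc2 (−0.57) came before Cypt3 (−0.55) and Actrt1 (−0.50).

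**Figure D3:**
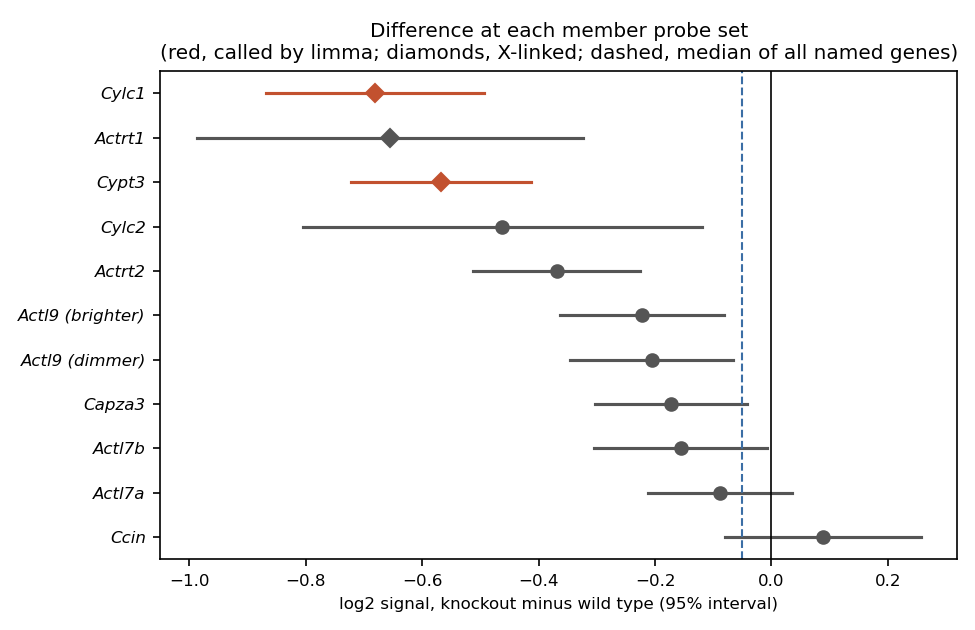
Log2 signal in knockout minus wild type for each of the 11 probe sets, with 95% intervals from limma. Red marks the called genes Cylc1 and Cypt3, diamonds mark the X-linked genes, the dashed line is the median of named genes at −0.05, and the interval of Ccin is the one centred above 0.

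Of 16 widely expressed actin, capping protein and actin-related genes, 11 were measured, of which 4 were lower and 7 higher (median log2 difference 0.05), with 0 called by limma and 3 lower and 1 higher at an unadjusted p under 0.05. Actr1a, a dynactin subunit gene, had a log2 difference of −0.23 (limma adjusted p = 0.085), and Actr6, a chromatin remodelling subunit gene, one of −0.27 (0.095). The cytoplasmic actin genes Actb and Actg1, chosen after their values were seen, had 0.08 and 0.06 at their brightest probe sets. A dimmer Actb probe set had −0.12, with 3275 and 2984 in wild type and 2749 and 3017 in the knockout, so the genotypes overlapped there, as they did at the brightest one (18739 and 19183 against 20996 and 19044). Of 6 other testis actin-related and profilin genes, 5 were measured and lay between −0.07 (Actl10) and 0.08 (Actrt3), with a median of −0.0046, and limma called 0, also at an unadjusted p under 0.05. The testis profilin genes Pfn3 and Pfn4 had −0.04 and −0.0046, the latter being the median.

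Among 18 further genes of the theca, the subacrosomal layer and acrosome attachment, 17 were lower and 1 fell (median −0.19, or −0.11 with 15 lower when knockout replicate 1 was left out). That gene was Pcsk4, a proprotein convertase of the acrosomal region, at 1492 and 1457 in wild type and 917 and 1005 in the knockout (log2 −0.62, SE 0.078, limma adjusted p = 0.047). Spata16, needed for acrosome formation, had a log2 difference of −0.27 (limma adjusted p = 0.071), the acrosomal membrane protein gene Spaca4 one of −0.38 (0.076), and Agfg1, whose product helps to fuse proacrosomal vesicles, one of −0.19 (0.12). At the other 4 Agfg1 probe sets the log2 difference lay between −0.16 and 0.0038.

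Lists of cell type markers were measured on the same arrays. All 12 round spermatid markers were lower (median −0.28), with 0 called by limma at their brightest probe sets and 9 at an unadjusted p under 0.05. Their summed signal was 114128 to 117475 in wild type and 91623 to 101486 in the knockout. The smallest p were at the kinase gene Tssk6 (−0.33), the sperm calcium channel gene Catsper1 (−0.44), the proacrosin-binding gene Acrbp (−0.35) and the protease gene Acr (−0.51). Acrbp fell at its dimmer probe set (log2 −0.59, limma adjusted p = 0.049). Of 12 late spermatid markers 10 were lower (median −0.12), with 0 called by limma, 5 at an unadjusted p under 0.05, and a summed signal of 557135 to 576901 against 519763 to 542295. Prm3 (−0.29), Gapdhs (−0.24), Tnp1 (−0.17) and Akap4 (−0.15) had the smallest p among them.

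Spermatocyte markers (5 of 12 lower, median 0.02) overlapped between genotypes in their summed signal, at 178465 to 180902 against 175742 to 179510. Pgk2 (−0.10) and Ldhc (−0.02), the latter chosen after its values were seen, made up most of it. The spermatocyte sum therefore says little about the dimmer genes of the list. Spermatogonial markers also overlapped (3 of 7 lower, median 0.07, summed 33368 to 34760 against 32474 to 35715). Most of that sum was Ddx4, chosen after its values were seen, at 31820 and 33139 in wild type and 30791 and 34123 in the knockout. The sum therefore says little about the other spermatogonial markers. Limma called 0 genes in either list, with 2 spermatocyte genes, Tex101 higher (0.31) and Syce1 lower (−0.22), and 0 spermatogonial genes at an unadjusted p under 0.05. Markers of Sertoli cells were higher in 9 of 11 (median 0.17, summed 68244 to 70099 against 82957 to 85961), with 0 called by limma and 4 at an unadjusted p under 0.05, the protease gene Ctsl (0.44) among them. Clu (0.27) and Ctsl made up most of that sum. Both were higher with no overlap between genotypes, as were Cst12 (0.25), Cst9 (0.21) and Rhox5 (0.29), the last chosen after its values were seen. Amhr2 (0.17), Wt1 (0.07), Sox9 (0.04), Inha (0.01), Dhh (−0.03) and Gata4 (−0.20), chosen likewise, each overlapped between genotypes. Leydig cell markers were higher in 5 of 5 (median 0.34, summed 16431 to 16641 against 20460 to 20906), and the steroid enzyme gene Cyp17a1 rose (log2 0.34, limma adjusted p = 0.0496). Cyp17a1 made up most of that sum, at 12131 and 11852 in wild type and 15226 and 15105 in the knockout. Without wild type replicate 1, or without knockout replicate 2, 4 of the 5 Leydig genes were higher.

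Leukocyte markers were higher in 8 of 8 (median 0.16, summed 2614 to 2789 against 2987 to 3334), with 0 called by limma and 2 at an unadjusted p under 0.05. Of the peritubular myoid and endothelial markers, 4 were measured, Acta2, Myh11, Cnn1 and Tagln, and 3 of them were higher (median 0.05). The endothelial markers Pecam1, Cdh5, Kdr and Tek were under the filter on low signal, so the list speaks for myoid cells only. Adipocyte and epididymis markers were lower in 5 of 7 (median −0.38). The sums of both lists overlapped between genotypes. Most of the adipocyte and epididymis sum was Lcn2, at 8088 and 9391 in wild type and 9564 and 15416 in the knockout (log2 0.48). The median of the adipocyte and epididymis list turned on wild type replicate 2, but not every gene of it did. Limma called 0 of its genes, and 2 were lower at an unadjusted p under 0.05, Adipoq and Cuzd1. Adipoq was at 450 and 558 in wild type and 293 and 368 in the knockout. Cuzd1 was at 192 and 436 against 117 and 129, and neither overlapped between genotypes. Fabp4, a fatty acid binding protein gene of adipocytes chosen after its values were seen, was at 170 and 1455 in wild type and 264.5 and 552 in the knockout, and Car3, chosen likewise, was at 124 and 1469 against 275 and 535. With that array left out 5 of the 7 genes of the list were higher in the knockout, with a median of 0.58. Leaving out 1 array also moved the median of late spermatid markers (to −0.05 without wild type replicate 1), of Sertoli markers (to 0.08 without wild type replicate 2) and of Leydig markers (to 0.17 without knockout replicate 2), while all 12 round spermatid markers stayed lower in each of the 4 cases (medians −0.38 to −0.23). In whole testis RNA, fewer spermatids and less RNA per spermatid cannot be told apart. The part of these shifts, and of the actin 3′ to 5′ ratio, in the lower signal of the sperm head genes was not tested.

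**Figure D4:**
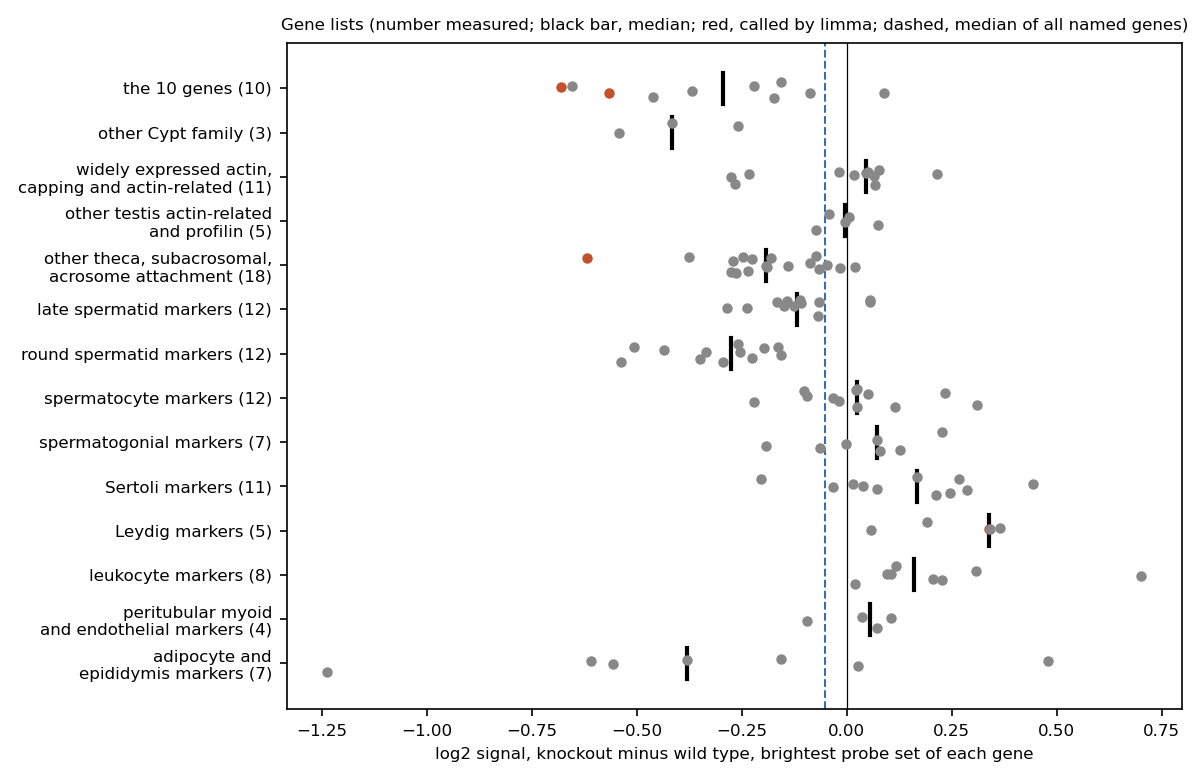
Log2 difference, knockout minus wild type, of each gene at its brightest probe set (points, red where called by limma) by gene list, with the list's median (black bar) and the median of named genes (dashed). The sperm head genes have a median of −0.30, near the −0.28 of round spermatid markers, while widely expressed actin genes lie around 0.05 and Leydig markers around 0.34.

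The direction of 9 of the 10 genes was kept under quantile normalization, under both ways of median centring and with any 1 array left out, and Actl7a was the exception, turning from −0.09 to 0.03 after quantile normalization. That scaling moved every one of the genes upward, Cylc1 to −0.55, Cypt3 to −0.46 and Ccin to 0.23, with the brighter Actl9 probe set at −0.11, the dimmer one at −0.08 and Actl7b at −0.08, and it moved the median of the 10 genes to −0.19. It also turned the balance of calls over the whole table, from 212 lower and 100 higher to 57 lower and 91 higher.

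**Figure D5:**
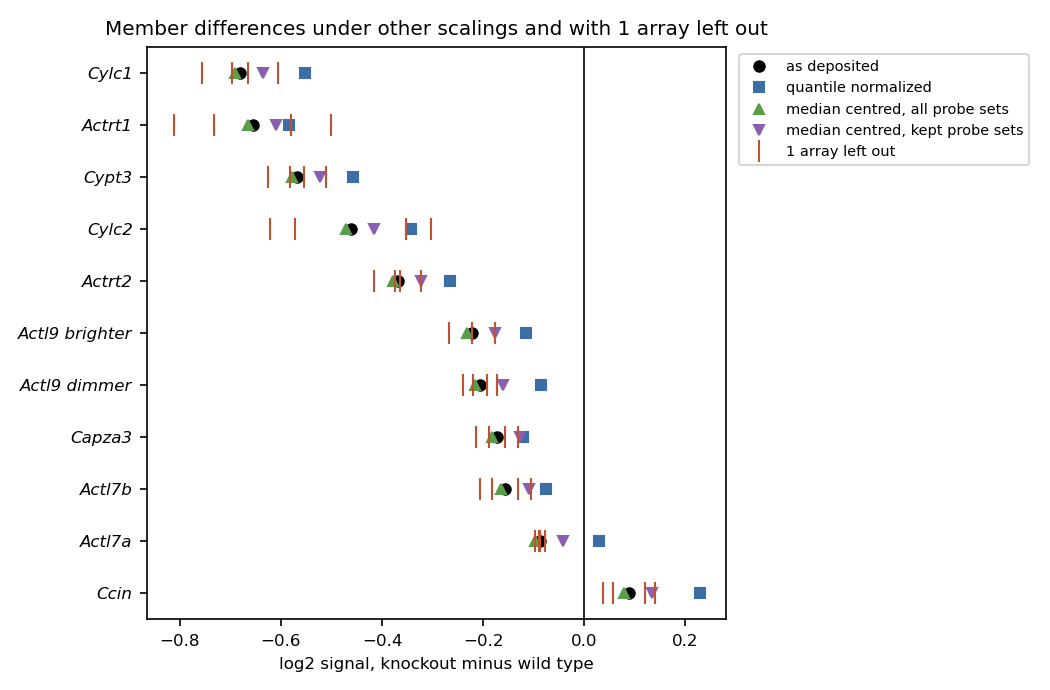
Log2 difference, knockout minus wild type, at each of the 11 probe sets as deposited (black), under 3 other scalings (coloured symbols) and with each of the 4 arrays left out (red bars). Quantile normalization gives the highest value of the 4 scalings at each probe set, and Actl7a is the one gene that it moves across 0.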

How the data were processed

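Whole testis RNA was measured on 4 Affymetrix arrays. The deposited table holds linear intensities per probe set, made by the authors with MAS5, per the submitters' processing notes, with version and scaling target not given in the sources used here. Probe sets were named through the platform annotation, updated by gene ID through RefSeq (GRCm38.p6): of 45037 mouse probe sets, 34945 had 1 gene, 932 several and 9160 none, and 34741 matched RefSeq. The log2 of each signal was used, with an offset of 0. Probe sets with a mean signal at or above the median (45.8) were kept. limma 3.58.1 in R 4.3.3 (lmFit, eBayes with a variance trend, 2 residual and 3.17 prior degrees of freedom) compared genotypes, and the procedure was tested on simulated data. The number of arrays limits the precision.

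The genes and lists were chosen with earlier results of these data known. Every one of the 10 genes is named, and of each other list the called genes and up to 4 with the smallest p, with the exceptions said in the text to be chosen after their values were seen and genes named beside a member as its partner or relative. The within-array ratios, a centring over kept probe sets and the lists with 1 array left out were chosen after seeing the data. Promoter windows were searched with Python 3.11.15. Alternatives were 4 scalings or offsets, 2 filters, 2 priors, the replicate block, another threshold, 2 selections of probe sets, and each array left out, where the lone array is taken to have the spread of the other genotype. Protein sequences were not used here.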

Additional observations from a re-analysis of the deposited data

How the results depend on the processing

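The log2 differences of Ccin, Capza3, Actl7b and the dimmer Actl9 probe set kept their direction and stayed uncalled by limma under each of their alternatives. Actl7a turned to 0.028 after quantile normalization. The calls of Cylc1 (−0.68) and Cypt3 (−0.57) were lost with no filter and without the variance trend, and that of Cypt3 after quantile normalization (−0.46). With 1 array left out both were lost, at −0.76 to −0.61 for Cylc1 and −0.62 to −0.51 for Cypt3. The 75th percentile filter added calls for Cylc2 (−0.46), Actl9 (−0.22), Actrt1 (−0.66) and Actrt2 (−0.37), a threshold of 0.10 for the last 3, and 1 probe set per gene for Actrt1 and Actrt2. Actrt2 also passed with arrays centred on their median over all (−0.38) or kept (−0.32) probe sets. The number of the 10 genes called was 1 after quantile normalization, 0 with no filter, 6 with the 75th percentile filter, 0 without the trend, 5 at 0.10, 1 with single-transcript probe sets (which leave out Cypt3), 4 with 1 probe set per gene and 0 with any 1 array left out (4 to 8 at an unadjusted limma p under 0.05). Their median was −0.19 after quantile normalization and −0.22 with single-transcript probe sets.

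Over the whole table the 312 calls became 148 after quantile normalization, 646 and 697 with centring over all and over kept probe sets, 2375 when filtered at the 75th percentile, 36 without the trend, 0 unfiltered (where 6192 had an unadjusted limma p under 0.05), 2628 at 0.10, 179 with single-transcript probe sets, 806 with 1 probe set per gene and 0 with any 1 array left out (3084 to 5500 at an unadjusted limma p under 0.05). With the replicate number as a block it was 541, and 2 of the 10 genes were called. The numbers do not pair the arrays by any label, and the deviations of same-numbered arrays correlated at 0.03. Where a call was lost or gained, the cause was not tested, beyond the smaller number of arrays or probe sets.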
